A study of Mus musculus with 4 samples.

Results

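The genes described here are 10 brakes on cell division: Cdkn2a, Cdkn2b, Cdkn2c, Cdkn2d, Cdkn1a, Cdkn1b, Trp53, Rb1, Trp63 and Trp73. They were taken by symbol from the 49554 annotated genes on chromosomes 1 to 19 and X of the mouse, each with 10 kb of flank on either side, and all 10 were found. The question was whether any of their promoters carried DNA methylation after 60 months of culture. Every one of the 10 genes had a promoter window (1000 bp before a start to 500 bp after it) with under 10% methylation at both culture ages, and no promoter window was called as different. With wider windows of 2000 bp before and 1000 bp after the start, 3 genes had none under 10%: Cdkn2d was at 12.7% in 60M-GS against 11.8% in 5M-GS, the lower Cdkn1a window was at 13.0% in 60M-GS against 13.3% in 5M-GS, and Trp63 was at 40.7% in 60M-GS against 41.7% in 5M-GS. Of the called tiles of 1 kb, 1 overlapped the edge of a Cdkn2c window and the others lay outside the promoter windows, among them 6 kb around the 3′ end of Cdkn2a, where the level was 74.3% in 60M-GS cells and 32.5% in 5M-GS cells.

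The INK4 proteins (products of Cdkn2a, Cdkn2b, Cdkn2c and Cdkn2d) block the kinases CDK4 and CDK6, and the CIP/KIP proteins (products of Cdkn1a and Cdkn1b) act mainly on CDK2, so that RB1 stays unphosphorylated and holds the E2F factors, while ARF, a further product of Cdkn2a, frees p53 from the ubiquitin ligase MDM2. Methylation of CpG-rich promoters goes with stable silencing, and the CDKN2A and CDKN2B promoters are known in human tumours and in long-cultured cells as places where it can appear. In mouse spermatogonial stem cells, loss of Cdkn1b or Trp53 is known to alter growth or self-renewal in culture.

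Germline stem (GS) cells are cultured mouse spermatogonial stem cells. 60M-GS and 5M-GS cells are wild-type GS cells grown for about 60 and about 5 months from testis of a transgenic EGFP line, the Green mice (strain C57BL/6 Tg14(act-EGFP)OsbY01), on a DBA/2 background, in an Iscove-based medium with human FGF2, rat GDNF and fetal bovine serum. Whole-genome bisulfite sequencing, which reads methylated cytosines as C and unmethylated ones as T, was done on 2 replicates per age with post-bisulfite adaptor tagging, which adds adaptors after the bisulfite step. The labels do not say whether replicates were separate cultures, nor whether both ages were 1 line.

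Each age came as 1 table in which both replicates were pooled, with 471693518 calls on 19341319 CpGs for 60M-GS (median 22 calls per CpG) and 468121185 calls on 19371838 CpGs for 5M-GS (median 21). No spread between replicates could be had, so every test below compares 2 pooled libraries, not culture ages, and every interval covers counting error only. Marker genes with several promoter windows (Tdrd1 and Snrpn, with 3 each) are given by their lowest window. Promoters of all 8 germ cell markers (Ddx4, Dazl, Mael, Tex101, Dppa3, Sohlh2, Taf7l and Tdrd1) were at 0.684% to 9.37% in 60M-GS against 2.04% to 12% in 5M-GS. Those of the 4 somatic testis markers that could be measured of 6 were also low, at 0.549% to 7.54% in 60M-GS against 0.354% to 8.42% in 5M-GS, so promoter methylation of these markers did not separate the cell types. The stretch from 4000 to 2000 bp upstream of H19, an imprint known to be methylated in the male germ line, was at 91.0% in 60M-GS against 93.5% in 5M-GS. The promoter window of H19 itself was lower, at 17.3% in 60M-GS against 15.5% in 5M-GS. The maternal imprints Snrpn, Peg3 and Kcnq1ot1 were at 0.354% to 9.64% in 60M-GS against 1.00% to 9.50% in 5M-GS.

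Promoter windows were placed around each start used, with 1000 bp before it and 500 bp after it. This gave 14 windows for the 10 genes, since Cdkn2a, Cdkn2c, Cdkn1a and Trp73 have 2 annotated starts each. For these 4 genes the start at the gene's 5′ end is called outer and the other inner. Rb1 and Trp63 had no entry in the promoter annotation used and were given 1 start each, at the CpG-dense end of the gene. Any further promoter inside Rb1 or Trp63 was not measured as such. The level of a region is its share of methylated calls in percent, taken over the CpGs that had 5 or more calls in each table. Of the 14 windows, 12 were under 10% in 60M-GS and the same 12 in 5M-GS, with at least 1 for every gene. Among all promoter windows, 47.3% were under 10% in 60M-GS against 49.4% in 5M-GS, and 41.4% were at 50% or more in 60M-GS against 38.9% in 5M-GS. The 12 windows spanned 0.323% to 8.66% in 60M-GS against 0.343% to 8.78% in 5M-GS, and 8 of them were at or under 1% in both. The remaining 2, the outer Cdkn1a start and the inner Trp73 start, were at over 50% in both tables, and no window lay between 10% and 50%. No promoter window that was under 10% in 5M-GS had left that range in 60M-GS.

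A two-sided Fisher's exact test was run on the calls of each of the 35115 windows of all genes, with p-values adjusted over them (Benjamini-Hochberg), and a window was called when the adjusted p was under 0.05 and the level differed by 20 points or more. None of the 14 windows was called in either direction, against 4.3% of all windows called higher and 0.501% called lower in 60M-GS. At those shares fewer than 1 call would fall among 14 windows, so the count does not set these genes apart from other genes. The median difference, 60M-GS minus 5M-GS, was -0.12 points over the 14 windows and 0.13 points over all windows. With an unadjusted p under 0.05 there were 3 windows (Cdkn2b and both of Cdkn1a), of which 2 (both of Cdkn1a) kept an adjusted p under 0.05 with differences under 20 points. Among the 12 low windows the largest difference was 1.59 points, and the highest upper bound of a 95% interval was 5.24 points, that of Trp63.

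**Figure D1:**
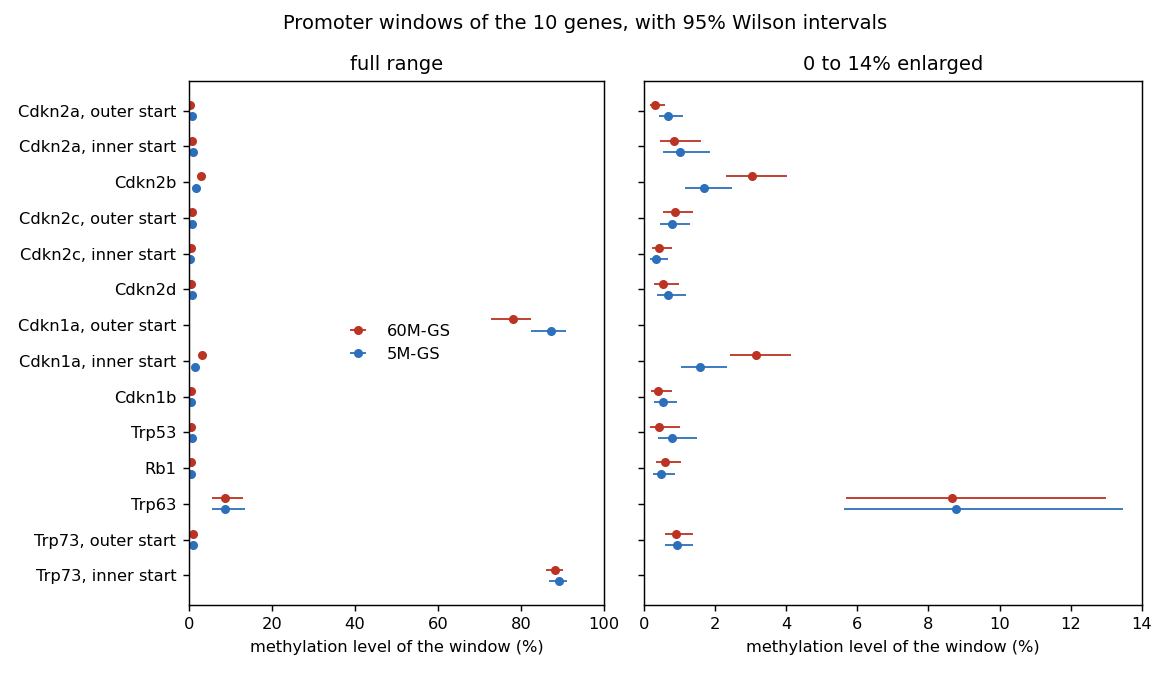
Methylation level (%) of the 14 promoter windows, with 60M-GS in red above 5M-GS in blue, on the full scale (left) and from 0 to 14% (right); points are pooled calls and bars are 95% Wilson intervals for counting error. The 12 windows under 10% lie at the left edge in both tables, and the outer Cdkn1a start (77.9% in 60M-GS, 87.1% in 5M-GS) and the inner Trp73 start (88.2% in 60M-GS, 89.1% in 5M-GS) lie to the right.

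Cdkn2a is the gene most often examined for such methylation. Its outer start gives the ARF transcript and its inner start, 12427 bp further in, gives the transcript of the INK4 protein p16. RefSeq promoter sequences (assembly GRCm38.p6, minus strand of chromosome 4, 250 bases before the start to 50 after it) are shown for both, and for the single start of Cdkn2b, because these are the promoters that the question is about. Capitals mark the CpGs.
Cdkn2a, outer start (ARF), chr4:89294570-89294869: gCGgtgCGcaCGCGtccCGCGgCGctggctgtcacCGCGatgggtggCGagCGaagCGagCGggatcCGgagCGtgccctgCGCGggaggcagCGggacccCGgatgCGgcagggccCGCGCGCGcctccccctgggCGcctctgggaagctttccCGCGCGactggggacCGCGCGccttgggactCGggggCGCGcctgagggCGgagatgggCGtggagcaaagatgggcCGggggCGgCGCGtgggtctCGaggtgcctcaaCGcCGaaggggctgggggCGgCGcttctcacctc
Cdkn2a, inner start (p16), chr4:89282143-89282442: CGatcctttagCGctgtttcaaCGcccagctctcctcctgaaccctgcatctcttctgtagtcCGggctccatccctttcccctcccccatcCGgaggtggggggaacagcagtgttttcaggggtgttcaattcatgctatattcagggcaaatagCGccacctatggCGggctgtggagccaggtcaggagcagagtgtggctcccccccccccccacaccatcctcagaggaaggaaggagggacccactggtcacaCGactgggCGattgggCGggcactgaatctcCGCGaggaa
Cdkn2b, chr4:89310983-89311282: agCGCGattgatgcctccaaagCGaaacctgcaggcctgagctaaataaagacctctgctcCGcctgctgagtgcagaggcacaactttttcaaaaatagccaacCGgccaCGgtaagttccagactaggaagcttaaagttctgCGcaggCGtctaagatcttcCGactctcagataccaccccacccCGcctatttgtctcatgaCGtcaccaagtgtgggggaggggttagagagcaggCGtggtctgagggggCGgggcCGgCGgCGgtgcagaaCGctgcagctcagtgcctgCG

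The ARF sequence holds 45 CpGs, the p16 sequence 12 and the Cdkn2b sequence 18, against a median of 7 over all 32851 promoter sequences of the same length. At least as many CpGs as in the ARF sequence were found in 1.93% of all promoter sequences, as many as in the Cdkn2b sequence in 29.7% and as many as in the p16 sequence in 39.6%. The 45 CpGs of the ARF sequence were at 0.619% in 60M-GS (646 calls) against 0.942% in 5M-GS (743 calls), and the highest single CpG stood at 10.0% in 60M-GS against 6.67% in 5M-GS. Of the 12 CpGs in the p16 sequence, 11 were covered in both tables. They had 0 methylated of 107 calls in 60M-GS, against a level of 1.55% of 129 calls in 5M-GS. With calls counted as independent, that 0 allows a level of up to 2.80%. The Cdkn2b sequence was at 0.292% of 342 calls in 60M-GS against 0 of 380 calls in 5M-GS, which allows up to 0.789% in the same way. CpGs on 1 read are not independent, so both bounds can be too low. All 3 sequences were close to unmethylated in both tables.

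The whole ARF window (153 CpGs) was at 0.323% of 2788 calls in 60M-GS against 0.697% of 2581 calls in 5M-GS. The difference was -0.37 points (95% interval -0.81 to 0.01, adjusted p = 0.189 by Fisher's exact test). The p16 window (47 CpGs) was at 0.853% of 1055 calls in 60M-GS against 1.02% of 985 calls in 5M-GS. Here the difference was -0.16 points, with an interval from -1.10 to 0.73. No CpG of either window reached 50% in either table. In the ARF window 144 of 153 CpGs had no methylated call in 60M-GS against 136 of 153 in 5M-GS.

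Cdkn2b, which encodes the neighbouring INK4 protein p15, had the highest level among the 4 INK4 genes. Its window (69 CpGs) was at 3.05% of 1572 calls in 60M-GS against 1.71% of 1524 calls in 5M-GS. The difference of 1.35 points (interval 0.27 to 2.46) had an unadjusted p of 0.018 and an adjusted p of 0.079 by Fisher's exact test. Most of the methylated calls, 48 in 60M-GS against 26 in 5M-GS, lay outside the CpG-dense part of the window. That part, chr4:89310608-89311279, held 5 of them in 60M-GS (0.377%) against 5 in 5M-GS (0.396%), while the highest CpG of the window reached 53.3% in 60M-GS against 25.0% in 5M-GS. With 250 bp on each side of the start, the level was 0.137% in 60M-GS against 0.361% in 5M-GS. With 2000 bp upstream and 1000 bp downstream it was 8.66% in 60M-GS against 6.08% in 5M-GS.

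Cdkn2c and Cdkn2d, which encode the INK4 proteins p18 and p19 and are known for roles in mouse spermatogenesis, were lower than Cdkn2b. The outer Cdkn2c window (91 CpGs) was at 0.874% in 60M-GS against 0.784% in 5M-GS, with a difference of 0.09 points (interval -0.53 to 0.70). Its inner start lies 1384 bp away, so the windows overlap; the inner one (91 CpGs) was at 0.435% in 60M-GS against 0.343% in 5M-GS. Cdkn2d (75 CpGs) was at 0.537% of 1862 calls in 60M-GS against 0.680% of 1765 calls in 5M-GS, with a difference of -0.14 points (interval -0.70 to 0.39).

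Cdkn1a, which encodes the p53-induced inhibitor p21, had starts that differed strongly from each other. They are shown because they contrast in CpGs and in level (GRCm38.p6, plus strand, CpGs in capitals).
Cdkn1a, outer start, chr17:29090729-29091028: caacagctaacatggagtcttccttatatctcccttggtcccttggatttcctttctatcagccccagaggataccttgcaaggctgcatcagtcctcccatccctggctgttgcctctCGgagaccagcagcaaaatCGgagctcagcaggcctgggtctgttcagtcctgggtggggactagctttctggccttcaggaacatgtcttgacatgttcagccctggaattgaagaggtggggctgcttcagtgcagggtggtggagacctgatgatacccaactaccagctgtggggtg
Cdkn1a, inner start, chr17:29093519-29093818: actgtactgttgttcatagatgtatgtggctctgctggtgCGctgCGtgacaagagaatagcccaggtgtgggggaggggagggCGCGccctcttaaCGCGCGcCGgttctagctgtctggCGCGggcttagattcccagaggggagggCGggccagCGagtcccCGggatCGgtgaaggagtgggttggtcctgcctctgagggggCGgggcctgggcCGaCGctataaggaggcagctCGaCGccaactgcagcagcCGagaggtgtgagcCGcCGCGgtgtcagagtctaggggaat

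The outer sequence has 2 CpGs and the inner one, 2790 bp downstream, has 23. The 2 outer CpGs were at 87.1% of 70 calls in 60M-GS against 91.3% of 46 calls in 5M-GS. The 23 inner CpGs were at 0.556% of 540 calls in 60M-GS against 0.593% of 337 calls in 5M-GS. At least 2 CpGs are found in 85.9% of all promoter sequences and at least 23 in 21.5%. The inner start had the CpG-rich, unmethylated promoter of this gene, and the outer start lay in methylated surroundings at both ages.

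The whole outer window (11 CpGs) was at 77.9% of 281 calls in 60M-GS against 87.1% of 249 calls in 5M-GS. The difference of -9.21 points (interval -15.54 to -2.72) had an adjusted p of 0.0327 by Fisher's exact test and stayed under the 20 points needed for a call. The inner window (65 CpGs) was at 3.17% of 1609 calls in 60M-GS against 1.58% of 1519 calls in 5M-GS. This difference of 1.59 points (interval 0.52 to 2.69) had an adjusted p of 0.026 by the same test and was not called either. The calls of each window were also divided by its number of CpGs, as if every read covered all of them. Both adjusted p-values were then 1 by the same test. So few calls are left by this division that a difference of a few points could not reach an adjusted p under 0.05. Here and below, a call lost with divided calls does not show that the difference is absent. Within the inner window, the dense run chr17:29093559-29093908 was at 0.459% in 60M-GS against 1.34% in 5M-GS, and the run chr17:29094007-29094587 at 0.862% in 60M-GS against 0.132% in 5M-GS. The highest CpG of the inner window stood at 34.4% in 60M-GS against 10.0% in 5M-GS. The direction of the difference at the inner start depended on the window. With 250 bp on each side the level was 0.435% in 60M-GS against 1.48% in 5M-GS. With 2000 bp upstream and 1000 bp downstream it was 13.0% in 60M-GS against 13.3% in 5M-GS.

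Because p21 is the classical p53 target, the 12 promoter sequences in hand, from 8 of the 10 genes (Rb1 and Trp63 have none in the table used), were searched for a p53 response element on both strands. A match was 2 adjacent copies of the 10-base p53 motif without a spacer, with the core of both copies intact and at most 1 mismatch elsewhere. The outer Cdkn1a sequence was the 1 sequence of the 12 with a match, against 18 (0.0548%) of all 32851 promoter sequences. With no mismatch allowed, none of the 12 and 3 (0.00913%) of all sequences matched; the mismatch was allowed after that search.
Match in the outer Cdkn1a sequence, chr17:29090928-29090947: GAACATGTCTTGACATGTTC

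This stretch lies 32 bp upstream of the outer start and 2822 bp upstream of the inner one, and it holds 0 CpGs, so its own methylation cannot be read in CpGs. The nearest CpG on one side, 61 bp away, was at 89.5% in 60M-GS against 84.0% in 5M-GS, and on the other side, 125 bp away, at 91.3% in 60M-GS against 90.9% in 5M-GS. A match in letters is not a bound site, and binding was not measured.

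Cdkn1b, which encodes the inhibitor p27, had a window of 98 CpGs at 0.418% of 2155 calls in 60M-GS against 0.531% of 2259 calls in 5M-GS. The difference was -0.11 points (interval -0.56 to 0.32). Its 30 CpGs nearest the start were at 0.150% in 60M-GS against 0.552% in 5M-GS.

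Trp53, the stress-activated transcription factor p53, was at 0.444% of 1127 calls in 60M-GS against 0.793% of 1135 calls in 5M-GS over 44 CpGs, a difference of -0.35 points (interval -1.10 to 0.35). A CpG-dense run at the start of its head-to-head neighbour Wrap53, which just reaches the upstream edge of the Trp53 window, was at 0.827% in 60M-GS against 0.264% in 5M-GS. Rb1, the retinoblastoma protein on which the INK4 and CIP/KIP branches converge, had 125 CpGs at 0.607% of 1976 calls in 60M-GS against 0.486% of 2263 calls in 5M-GS, and the difference was 0.12 points (interval -0.34 to 0.62). For both tumour suppressors the interval of the difference included 0.

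The p53 relatives p63 and p73, which are known in mice for roles in germ cells, have windows of unlike make-up. The Trp63 window, at the 5′ end of the gene, held just 9 CpGs and was at 8.66% of 231 calls in 60M-GS (interval 5.67% to 13.0%) against 8.78% of 205 calls in 5M-GS (5.63% to 13.5%). It was the highest of the 12 low windows in both tables and had the widest interval. Its low level also depended on the window: it was at 40.7% in 60M-GS against 41.7% in 5M-GS with 2000 bp upstream and 1000 bp downstream, and at 2.48% in 60M-GS against 1.5% in 5M-GS with 250 bp on each side. As a mean of the CpGs' own levels it was at 12.4% in 60M-GS against 10.5% in 5M-GS, and with CpGs of 1 or more calls at 9.05% in 60M-GS against 10.5% in 5M-GS. Trp73 has an outer start, which gives the full-length TAp73 transcript, and an inner start 42702 bp further in, which gives the truncated ΔNp73. They are shown because 1 gene here has an unmethylated CpG-rich start and a methylated one with a number of CpGs near the median (GRCm38.p6, minus strand, CpGs in capitals).
Trp73, outer start (TAp73), chr4:154139826-154140125: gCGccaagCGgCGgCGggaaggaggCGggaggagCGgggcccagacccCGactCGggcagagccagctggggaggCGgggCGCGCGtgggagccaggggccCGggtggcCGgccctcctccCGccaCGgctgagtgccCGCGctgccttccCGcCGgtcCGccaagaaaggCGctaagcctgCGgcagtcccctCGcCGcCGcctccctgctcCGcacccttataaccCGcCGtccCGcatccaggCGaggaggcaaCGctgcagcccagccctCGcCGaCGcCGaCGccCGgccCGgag
Trp73, inner start (ΔNp73), chr4:154097124-154097423: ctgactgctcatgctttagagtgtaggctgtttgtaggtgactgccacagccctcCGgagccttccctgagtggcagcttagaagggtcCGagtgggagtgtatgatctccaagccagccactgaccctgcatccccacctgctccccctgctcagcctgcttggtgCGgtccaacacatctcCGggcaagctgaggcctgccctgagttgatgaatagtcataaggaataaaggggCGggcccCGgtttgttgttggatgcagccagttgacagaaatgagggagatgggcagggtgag

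The outer sequence has 39 CpGs at 0.304% of 657 calls in 60M-GS against 0.802% of 748 calls in 5M-GS. The inner sequence has 6 CpGs at 89.5% of 191 calls in 60M-GS against 93.1% of 145 calls in 5M-GS. Over the whole windows, the outer start (110 CpGs) was at 0.908% in 60M-GS against 0.924% in 5M-GS. The inner start (35 CpGs) was at 88.2% of 947 calls in 60M-GS against 89.1% of 886 calls in 5M-GS, and the difference was -0.88 points (interval -3.79 to 2.05, adjusted p = 0.805 by Fisher's exact test). The inner start was methylated in both tables, and the interval of the difference included 0.

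Counted CpG by CpG, the 12 low windows held 965 distinct CpGs. Of these, 854 (88.5%) had no methylated call in 60M-GS, against 837 (86.7%) in 5M-GS. A level of 50% or more was reached by 3 of them in 60M-GS (1 each in the windows of Cdkn2b, Cdkn2c and Trp63), against 1 in 5M-GS (in that of Trp63). Single CpGs rest on few calls, and these were not tested.

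The unmethylated zone around each low start was also measured, from the start outward until 3 consecutive CpGs stood at 50% or more. Its width was the same in both tables around Cdkn2b (2518 bp), Cdkn2d (2121 bp), Trp63 (1077 bp) and the p16 start (1910 bp). Of the 11 distinct zones, 6 were narrower and 1 wider in 60M-GS. Zones of other genes were not measured, so this count has no background beside it and does not set these genes apart. Cdkn1b had the largest shortening, to 3378 bp in 60M-GS against 4313 bp in 5M-GS, all of it on the downstream side. The zone of the ARF start was 2699 bp wide in 60M-GS against 3177 bp in 5M-GS, shorter on its upstream side. The zone shared by the Cdkn2c starts was 3089 bp wide in 60M-GS against 3533 bp in 5M-GS, and that of Rb1, the wider one, was 3669 bp in 60M-GS against 2912 bp in 5M-GS. The zones of Trp53 (3806 bp in 60M-GS, 4110 bp in 5M-GS), Cdkn1a (3132 bp in 60M-GS, 3313 bp in 5M-GS) and TAp73 (5495 bp in 60M-GS, 5633 bp in 5M-GS) differed less. These widths turn on a few CpGs at each edge and have no test.

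**Figure D2:**
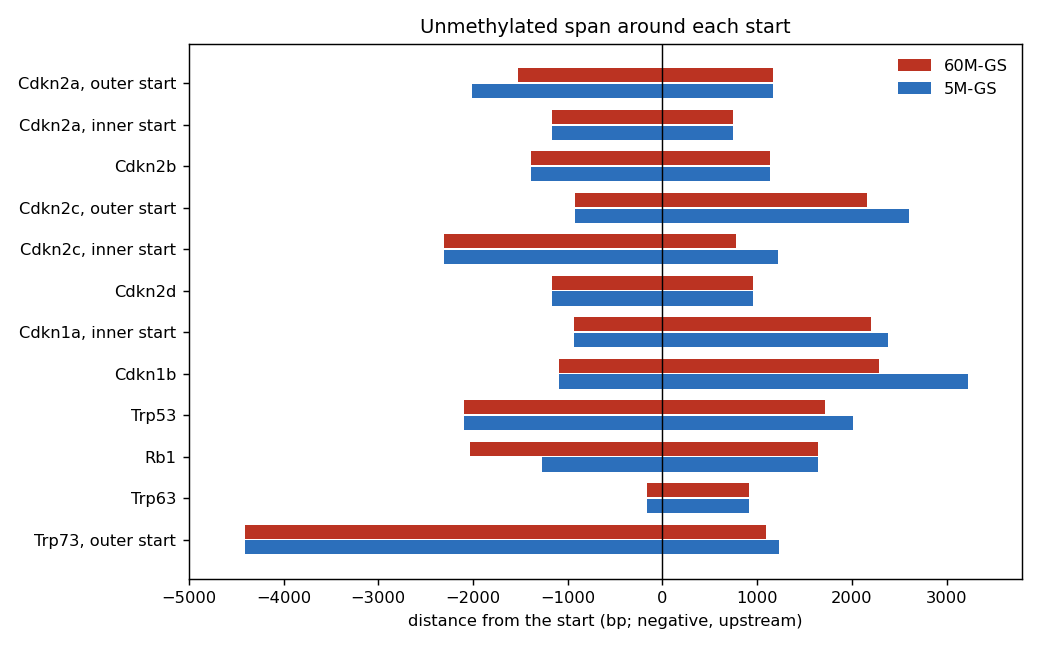
Unmethylated zone around each low start, in bp upstream (negative) and downstream of the start, with 60M-GS in red above 5M-GS in blue; a bar ends at the first 3 consecutive CpGs at 50% or more. Every low start has a zone in both tables, and the Cdkn1b zone ends 2290 bp downstream of the start in 60M-GS against 3225 bp downstream in 5M-GS.

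CpG-dense runs, which stand in for CpG islands, were defined as 20 or more listed CpGs in a row, no more than 50 bp apart, over 200 bp or more. The 10 loci held 29 of them, none in the Trp63 locus. The 13 runs that overlap one of the promoter windows were at 0.158% to 0.862% in 60M-GS against 0.132% to 1.34% in 5M-GS, and 0 of them were called. Over all 29 runs, 2 were called higher (6.90%) and 0 lower in 60M-GS, against 5.13% called higher and 0.12% called lower among the 23238 runs of the genome. With divided calls 1 of the 29 was called higher, against 3.02% of all runs. A further 4 runs, all away from the starts, were at over 50% in both tables, among them chr17:29098429-29098662 in Cdkn1a (94.9% in 60M-GS, 92.4% in 5M-GS) and chr4:89306968-89307296 in Cdkn2b (90.5% in 60M-GS, 87.6% in 5M-GS). The other 23 were under 10% in both tables, at no more than 0.969% in 60M-GS against 1.34% in 5M-GS.

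The Cdkn2a run that was called, chr4:89276650-89276967, lies within the gene, with its middle 5384 bp downstream of the p16 start. Its 31 CpGs were at 94.5% of 689 calls in 60M-GS against 28.6% of 829 calls in 5M-GS. The difference was 65.9 points (interval 62.2 to 69.2), with an adjusted p of 7.69e-168 by Fisher's exact test and 0.000124 with divided calls. Single CpGs ranged from 76.9% to 100% (median 95.2%) in 60M-GS against 16% to 50% (median 28.0%) in 5M-GS. The ranges do not overlap, all 31 CpGs were higher in 60M-GS, and 30 of them stood at 80% or more there against 0 in 5M-GS. The run was picked because it was called on these same calls. Its CpGs share reads and are not replicates, so these counts describe the run and are no further test.

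The Trp73 run that was called, chr4:154081270-154081525, lies 15776 bp downstream of the ΔNp73 start. Its 23 measured CpGs were at 23.4% of 435 calls in 60M-GS against 1.73% of 578 calls in 5M-GS. The difference of 21.7 points (interval 17.7 to 26.0) had an adjusted p of 3.02e-28 by Fisher's exact test and 0.593 with divided calls, which ends the call. Single CpGs ran from 0 to 41.7% (median 20%) in 60M-GS against 0 to 8.33% (median 0) in 5M-GS, with 22 of 23 higher in 60M-GS. This run too was picked by its call, so these counts are no further test.

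Across the loci, 552 tiles of 1 kb could be tested, 7 of them shared by 2 loci. Of these, 18 (3.26%) were called higher and 2 (0.362%) lower in 60M-GS. Among all 1689849 tiles, 3.48% were called higher and 0.475% lower, so the loci as a whole stood near the background. With divided calls, 4 tiles were called higher and 0 lower, against 0.498% called higher among all tiles. The 18 higher tiles were at 31.4% to 93.6% in 60M-GS against 1.04% to 59.5% in 5M-GS, and 10 of them reached 80% in 60M-GS. They fell in 5 loci (Cdkn2a, Cdkn2c, Cdkn1a, Rb1 and Trp63). The loci of Cdkn2b, Cdkn2d, Cdkn1b and Trp53 had no called tile. Of the called tiles, 14 lay within the gene itself, and 1 overlapped a promoter window, that of the inner Cdkn2c start.

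**Figure D3:**
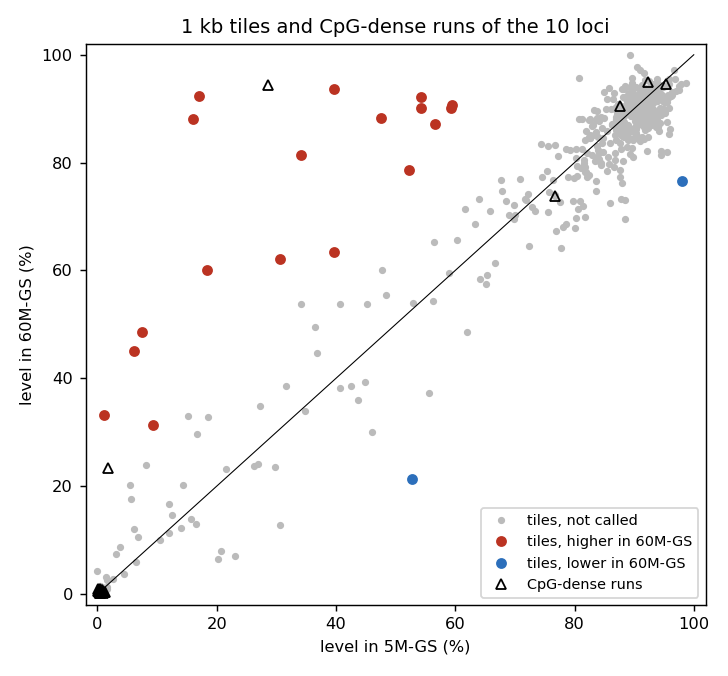
Methylation level (%) in 60M-GS (vertical) against 5M-GS (horizontal) of the 552 tiles of 1 kb (points) and 29 CpG-dense runs (triangles) in the 10 loci; the line marks equal levels. Most tiles sit near the line at high levels, the 18 tiles called higher in 60M-GS (red) lie above it at 31.4% to 93.6% in 60M-GS, and the 2 called lower (blue) lie below it.

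In the Cdkn2a locus the called tiles were contiguous. All 6 tiles from chr4:89272001-89278000 were higher in 60M-GS, a stretch that begins outside the gene, takes in its 3′ end at position 89274473 and stops 4192 bp short of the p16 start. The tile with the largest difference, at 89276001, was at 93.6% of 1029 calls in 60M-GS against 39.7% of 1238 calls in 5M-GS (53.9 points, interval 50.7 to 56.9). Its adjusted p was 1.73e-173 by Fisher's exact test and 0.0286 with divided calls, the only 1 of the 6 that kept its call then. The tile at 89274001 was at 81.3% in 60M-GS against 34.2% in 5M-GS (adjusted p = 5.22e-52 by Fisher's exact test). The tile at 89272001, beyond the gene, was at 45.0% in 60M-GS against 6.18% in 5M-GS (adjusted p = 1.13e-44 by the same exact test). The other 3 tiles differed by 30.6 to 32.1 points.

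Joined after the tiles had been seen, the 6 kb held 168 CpGs at 74.3% (interval 72.9% to 75.7%) in 60M-GS against 32.5% (31.1% to 34.0%) in 5M-GS. Within the 6 kb the difference was uneven. CpGs from 18.563 to 19.035 kb downstream of the outer start, picked after their values were seen, stood at 80% or more in both tables. On either side of the 6 kb the levels of the tables lay close together. The 3691 bp between the stretch and the p16 window were at 59.6% in 60M-GS against 56.1% in 5M-GS, and the difference was 3.49 points with an interval from -2.56 to 9.50. The 10926 bp between the p16 and ARF windows were at 82.8% in 60M-GS against 80.6% in 5M-GS, and the 7528 bp of flank beyond the stretch at 86.1% in 60M-GS against 85.6% in 5M-GS. Over the whole span of the gene the level was 62.4% in 60M-GS against 45.8% in 5M-GS. The Cdkn2a promoters were close to unmethylated in both tables, and the called differences of this locus lay in and beyond the 3′ part of the gene.

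**Figure D4:**
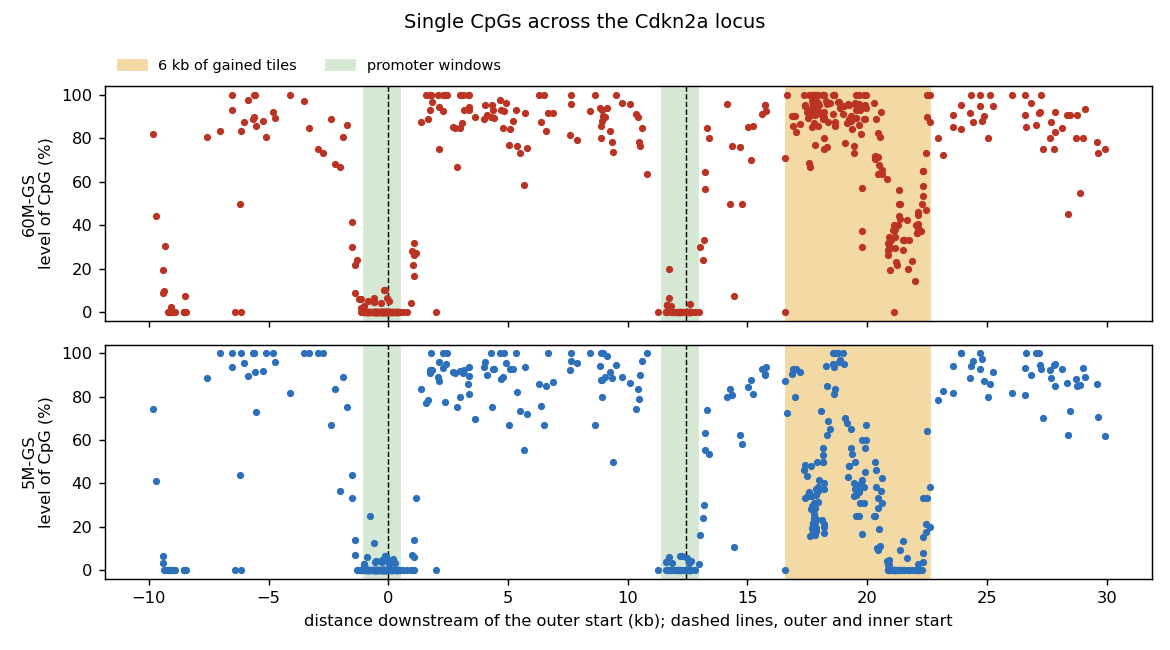
Methylation level (%) of single CpGs across the Cdkn2a locus by distance (kb) downstream of the outer start, with 60M-GS above and 5M-GS below; green bands are the promoter windows and the orange band is the 6 kb of tiles called higher in 60M-GS. CpGs in the green bands lie near 0 in both tables, and those in the orange band are at 74.3% in 60M-GS against 32.5% in 5M-GS as pooled calls.

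The Cdkn2c locus had 3 higher tiles. The one nearest to a start, chr4:109664001-109665000, has its middle 872 bp downstream of the inner start and was at 60% in 60M-GS against 18.4% in 5M-GS (41.6 points, interval 34.7 to 48.0, adjusted p = 3.83e-28 by Fisher's exact test). It is the downstream edge of the unmethylated zone, which ended 777 bp from the inner start in 60M-GS against 1221 bp from it in 5M-GS. The tiles at 109658001 (31.4% in 60M-GS, 9.32% in 5M-GS) and, next to it, at 109659001 (78.7% in 60M-GS, 52.3% in 5M-GS) lie beyond the 3′ end of the gene, next to the unmethylated dense run of 9630013D21Rik. None of the 3 kept its call with divided calls.

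Cdkn1a had 1 higher tile, chr17:29083001-29084000, with its middle 7479 bp upstream of the outer start, at 62.2% in 60M-GS against 30.6% in 5M-GS (31.6 points, adjusted p = 2.58e-25 by Fisher's exact test). That call was lost with divided calls.

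Rb1 had 3 higher tiles and 1 lower. The largest difference, at chr14:73238001-73239000, was 48.5% of 956 calls in 60M-GS against 7.49% of 1161 calls in 5M-GS (41.0 points, interval 37.5 to 44.5). Its adjusted p was 3.49e-104 by Fisher's exact test and 0.0463 with divided calls. This tile and the next one (63.5% in 60M-GS, 39.7% in 5M-GS) lie 87451 and 86451 bp downstream of the Rb1 start and overlap Lpar6, a lysophosphatidic acid receptor gene nested within Rb1. The promoter window of Lpar6 was itself called, at 53.7% of 497 calls in 60M-GS against 14.5% of 635 calls in 5M-GS (39.2 points, adjusted p = 4.57e-44 by Fisher's exact test). The tile at 73335001, 9549 bp upstream of Rb1, was at 92.2% in 60M-GS against 54.2% in 5M-GS (adjusted p = 4.58e-44 by the same exact test; the call was lost with divided calls). The lower tile, at 73299001, rests on 5 CpGs and was at 76.7% of 60 calls in 60M-GS against 98.0% of 49 calls in 5M-GS (adjusted p = 0.0195 by the same exact test, lost with divided calls).

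Trp63, the longest of the 10 genes at 208326 bp, had 5 higher tiles, all inside the gene and far from the 5′ end. The largest difference of all 18 higher tiles was at chr16:25778001-25779000, with its middle 94737 bp downstream of the start. It was at 92.4% of 197 calls in 60M-GS against 17.0% of 305 calls in 5M-GS (75.3 points, interval 68.8 to 80.1, adjusted p = 4.33e-66 by Fisher's exact test, and 0.000247 with divided calls). The next largest was at chr16:25889001-25890000, 205737 bp downstream, at 88.2% of 515 calls in 60M-GS against 16.1% of 572 calls in 5M-GS (72.1 points, interval 67.6 to 75.8, adjusted p = 7.1e-135 by Fisher's exact test, and 0.000387 with divided calls). The tile at 25752001 was at 88.3% in 60M-GS against 47.5% in 5M-GS, a call lost with divided calls. Depth differed most in the Trp63 locus, at 22.1 calls per CpG in 60M-GS against 24.5 in 5M-GS. Relative to the autosomes its depth in 60M-GS was 0.890 times that in 5M-GS, against 0.971 to 1.03 times in the other 9 loci; its part in these differences was not tested.

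In Trp73 the called tile went the other way. The tile chr4:154109001-154110000, inside the gene and 12327 bp upstream of the ΔNp73 start, was at 21.2% of 645 calls in 60M-GS against 52.8% of 686 calls in 5M-GS. The difference was -31.53 points (interval -36.29 to -26.53), with an adjusted p of 3.12e-31 by Fisher's exact test, and the call was lost with divided calls.

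**Figure D5:**
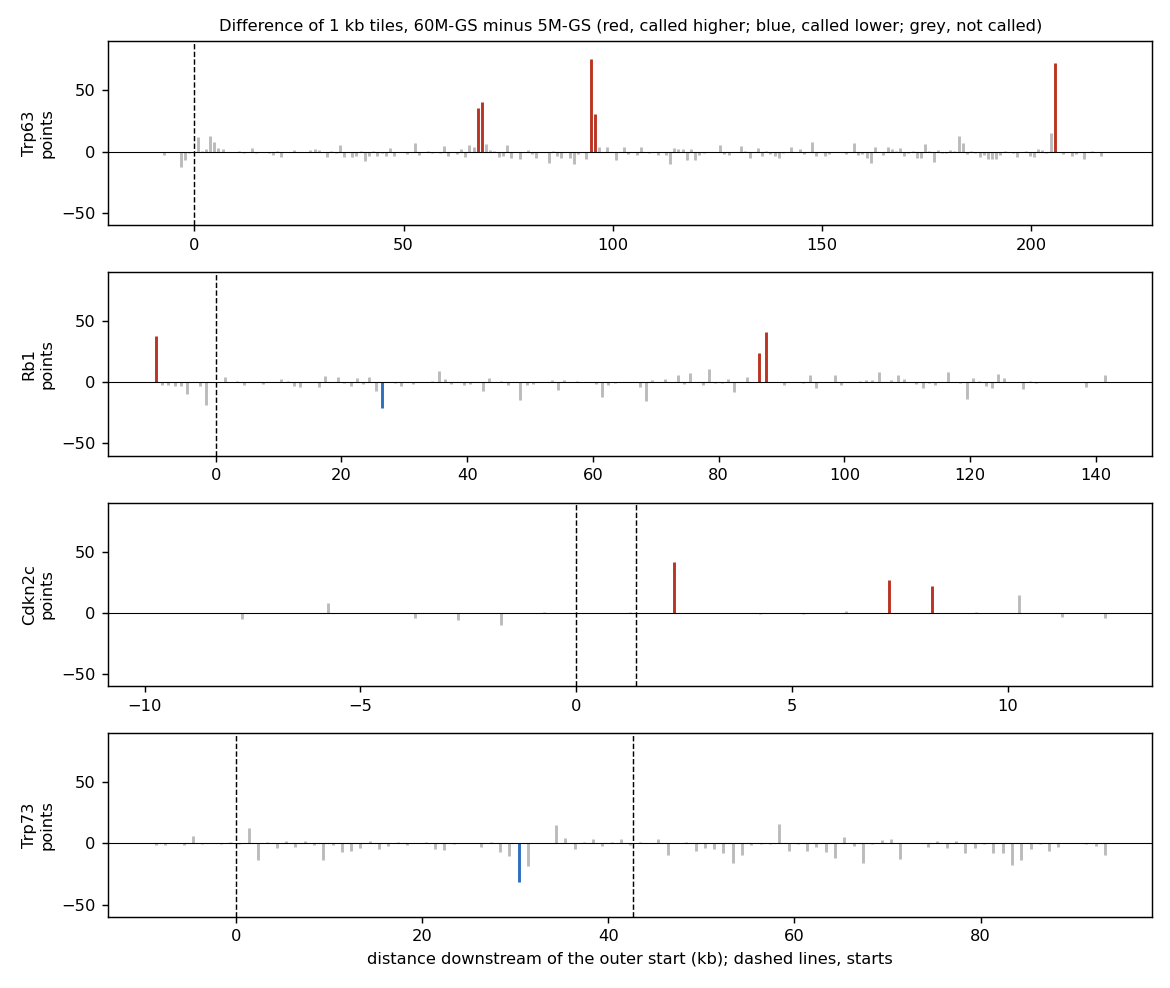
Difference in methylation level (60M-GS minus 5M-GS, percentage points) of 1 kb tiles across the loci of Trp63, Rb1, Cdkn2c and Trp73, by distance (kb) downstream of the outer start; red bars are tiles called higher, blue bars tiles called lower, grey bars tiles not called, and dashed lines mark starts. The called tiles stand apart from the starts, the Trp63 tiles reaching 75.3 and 72.1 points, except for the Cdkn2c tile 872 bp from the inner start.

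A list of 84 other genes of the same pathways, chosen with earlier results of these data known, was read in the same fit. It holds cyclins and kinases, the RB and E2F families, regulators and targets of p53, regulators of the INK4 and ARF locus, and other inhibitors and senescence-associated genes. For 79 of them there were 100 promoter windows, of which 1 (1%) was called higher and 0 lower in 60M-GS, against the 4.3% and 0.501% of all windows. The median difference was 0.11 points. A window under 10% was found for 71 of the 79 genes in 60M-GS against 74 in 5M-GS. Among the single windows of all genes, 47.3% were under 10% in 60M-GS against 49.4% in 5M-GS. That share is not one of genes, so the counts of genes have no like background. By group, the genes with such a window in 60M-GS were 9 of 11 cyclins and kinases, 12 of 12 RB and E2F genes, 12 of 12 p53 regulators, 13 of 15 p53 targets, 13 of 14 regulators of the INK4 and ARF locus and 12 of 15 of the last group.

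The window called was at 1 of 3 starts of Fbxw7, the ubiquitin ligase subunit that marks cyclin E for destruction. At position 84952211 of chromosome 3 it was at 79.7% in 60M-GS against 27.0% in 5M-GS (52.7 points, interval 47.3 to 57.5, adjusted p = 7.7e-68 by Fisher's exact test, and 0.0651 with divided calls, which ends the call). The other starts of Fbxw7 were at 0.527% and 91.1% in 60M-GS, against 0.497% and 87.9% in 5M-GS. The 3 genes under 10% in 5M-GS alone, named after their values were seen, were Il6, Cdk4 and Ccng1. Il6, a secreted cytokine of senescent cells, was at 29.0% in 60M-GS against 9.35% in 5M-GS, and its difference of 19.6 points (adjusted p = 2.56e-12 by Fisher's exact test, and 1 with divided calls) was not called. Cdk4, the kinase that the INK4 proteins inhibit, was at 11.6% in 60M-GS against 3.67% in 5M-GS, and the cyclin G gene Ccng1, a p53 target, was at 11.6% in 60M-GS against 7.20% in 5M-GS. The other 5 genes without a low window had like levels in both tables, as with Ets1 (39.3% in 60M-GS, 41.9% in 5M-GS), an activator of p16, and Sfn (18.4% in 60M-GS, 19.2% in 5M-GS), a p53 target.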

How the data were processed

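Bisulfite libraries of 2 replicates each of 60M-GS and 5M-GS cells were processed with Bismark (version 0.10.0) on the mm10 build, per the submitters' processing notes. Filters and deduplication: not given in the sources used here. The deposited tables, 1 per age with both replicates pooled by the authors, hold raw counts of methylated and unmethylated calls per CpG and the percent methylated, which the authors computed from these counts and which matched them here.

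Starts came from a RefSeq promoter table (GRCm38.p6, all annotated starts). For genes without an entry, Rb1 and Trp63 among them, the 5′ end was the gene end that had 2 or more times as many CpGs as the opposite one (300 bp to either side). Exons were not analysed here. CpGs with under 5 calls in either table were left out, and a region needed 4 CpGs. Fisher's exact test was two-sided, adjusted by Benjamini-Hochberg over all windows, runs or tiles, and a call needed an adjusted p under 0.05 and 20 points. Levels carry 95% Wilson intervals and differences Newcombe intervals. The test was tried on simulated data.

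Members and lists were chosen with earlier results of these data known. Named are the 10 genes, dense runs in promoter windows, called dense runs, up to 3 called tiles per locus by size of difference and called pathway windows. Further tiles, runs and genes with values, Lpar6, the joined Cdkn2a stretches and the p53 search with 1 mismatch were chosen after their values were seen. Python 3.11.15, numpy 2.4.6, pandas 2.3.3, scipy 1.17.1 and numba 0.67.0 were used. Alternatives were other call minimums, depth limits, differences, window sizes, tile offsets, flanks, run definitions and divided calls.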

Additional observations from a re-analysis of the deposited data

How the results depend on the processing

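Of the promoter windows, 0 were called in either direction under every alternative tried, among the 14 that could be tested under each, or 13 with windows of 250 and 250 bp (minimum of 1 or 10 calls, no CpG over 74 calls, divided calls, 10 or 30 points, windows of 2000 and 1000 bp or 250 and 250 bp). With windows of 250 and 250 bp, 1 window instead of 2 was at 50% or more in 60M-GS, because the outer Cdkn1a start then has 3 CpGs, fewer than the 4 needed. With windows of 2000 bp upstream and 1000 bp downstream, 4 starts left the range under 10% in both tables: p16 (10.1% in 60M-GS, 11.2% in 5M-GS), Cdkn2d (12.7% in 60M-GS, 11.8% in 5M-GS), Trp63 (40.7% in 60M-GS, 41.7% in 5M-GS) and the inner Cdkn1a start (13.0% in 60M-GS, 13.3% in 5M-GS). As a mean of CpG levels the Trp63 window was at 12.4% in 60M-GS against 10.5% in 5M-GS, and with a minimum of 1 call at 10.5% in 5M-GS. The 2 higher dense runs became 1 with divided calls, 1 at 30 points, 4 with runs of 10 CpGs and 5 with gaps of 100 bp. The 18 higher tiles became 4 with divided calls and 28 at 10 points. The 2 lower tiles became 1 with a minimum of 1 or 10 calls, 0 with divided calls, 14 at 10 points and 1 at 30 points. The 1 pathway window called became 0 with divided calls and 2 at 10 points. Of 23 called regions, 5 kept their call with divided calls and 18 did not. Divided calls treat each read as covering all CpGs of a region, so a lost call does not show that a difference is absent. None of these 23 regions reversed its direction in the alternatives in which it was followed. Windows that were not called could reverse. The inner Cdkn1a window was at 3.17% in 60M-GS against 1.58% in 5M-GS. With 250 bp on each side it was at 0.435% in 60M-GS against 1.48% in 5M-GS. Apart from the limits on the difference and the definitions of runs, the cause of these changes was not tested. No paired analysis was possible because both replicates of an age are pooled in 1 table, and for the same reason no replicate could be left out. The Trp63 window has 9 CpGs, and a shift of a few points there was not detectable.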
